A study of Mus musculus with 4 samples.

Results

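The 10 genes described here are extracellular proteases and their partners: the secreted matrix metalloproteinases Mmp9, Mmp12, Mmp13 and Mmp19, the membrane-bound Mmp14 and Mmp25, the inhibitor Timp2, the surface protease Adam8, urokinase (Plau) and its receptor (Plaur). They were chosen by name, as 10 of the 17476 genes in the count table, and all 10 were among the 14239 genes abundant enough to be tested. The series compared myeloid-derived suppressor cells (MDSCs), immature myeloid cells that dampen T cell responses, between a WT and a Trem2_mutant genotype, with 2 RNA libraries each. Both genotypes are labelled C57BL/6. Bone marrow precursors from either kind of mouse were differentiated into MDSCs in culture. The recipients were male NRG mice (immunodeficient, labelled as 6 weeks old) that had carried a subcutaneous tumour grown from the mouse prostate cancer line TRAMP-C1 for 4 weeks. Tumours were taken 6 h after the injection and digested with collagenase D and DNAse for 45 minutes, and the sort kept CD45+ CD11B+ GR1+ cells. What the Trem2 mutation changes, a detail not given in the sources used here, limits the genotype as a model, and the gate holds no marker to separate injected cells from the recipient's own granulocytes and monocytes. The libraries are named by their column numbers: WT 1, WT 2, Trem2 mutant 1 and Trem2 mutant 3. Whether the libraries of a genotype stem from different mice or cultures is not labelled, and p-values therefore reflect the spread between these 4 libraries alone, which may be technical.

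Matrix metalloproteinases are zinc enzymes, made as inactive precursors, that cut collagens, elastin, gelatin and many secreted or surface proteins. Tissue inhibitors of metalloproteinases (TIMPs) block their active site. Timp2 has a further role, because a complex of Timp2 with Mmp14 on the cell surface is the site where the precursor of the gelatinase Mmp2 is activated. Urokinase turns plasminogen into plasmin, a broad protease that also activates some metalloproteinases, and its receptor Plaur holds it on the surface of migrating leukocytes. In tumours, Mmp9 from granulocytes and macrophages is known for releasing growth factors from the matrix.

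Libraries held 8037733 to 10306674 reads. Trem2 itself, the gene that checks the labels, was at 44.2 and 52.2 CPM (read counts scaled to library size with TMM factors, a correction for differences in library make-up) in WT 1 and WT 2, and at a mean of 21.9 ± 1.36 CPM (SD, n = 2) in Trem2 mutant 1 and Trem2 mutant 3. Of the gate antigens, the genes of CD45 (Ptprc) and CD11B (Itgam) were abundant in all libraries, at least 1114 and 419.7 CPM. Ly6g, whose product GR1 antibodies bind, was at 5.66 and 7.22 CPM in the WT libraries against a mean of 133 CPM in the mutant libraries. The related Ly6c2 was at 26.9 and 24.8 CPM in WT against 378 and 282 CPM in the mutant libraries. The summed level of 10 neutrophil markers was 4220 to 4236 CPM in WT against 22165 to 26862 CPM in mutant libraries, and 9 of the 10 were called higher. The sum of 9 macrophage markers was 1742 to 1846 CPM in WT against 1599 to 1845 CPM in mutant libraries, with 4 called higher and 0 lower. Those 4 were C1qa, C1qb, C1qc and Apoe. The most abundant markers were lower in both mutant libraries without a call: Csf1r (mean 855 CPM in WT, 702 in mutant), Adgre1 (379 and 330) and Cd68 (346 and 279). Mrc1 was higher and Mertk overlapped, neither of them called. The sum of 10 fibroblast markers was 181 to 235 CPM in WT against 496 to 534 CPM in mutant libraries, with 5 of the 8 tested called higher. Monocyte markers (5 of 6 higher) summed to 521 to 607 CPM in WT and 1119 to 1765 CPM in the mutant, and eosinophil markers (6 of 6 tested higher) to 99.8 to 101 and 211 to 239 CPM. Epithelial markers (0 higher and 1 lower of 2 tested) summed to 154 to 161 and 85.8 to 88.4 CPM. Nearly all of that sum was Cdh1, at 151 and 158 CPM (WT 1, WT 2) and 82.5 and 85.0 CPM (Trem2 mutant 1, Trem2 mutant 3). Krt18 was at 1.96 to 2.58 CPM and not called (log2 0.23), Epcam had 3 to 11 reads and Krt8 0 to 5. The lower epithelial sum thus rests on Cdh1 alone. Endothelial markers (1 higher and 1 lower of 3) summed to 166 to 169.8 and 148 to 162 CPM, and lymphocyte markers (0 of 3 called) to at most 5.58 CPM. Xist, the RNA of the inactive X chromosome, had 2 and 3 reads in WT 1 and WT 2 against 6928 and 9117 in Trem2 mutant 1 and Trem2 mutant 3. The Y-linked Kdm5d had 374 and 365 reads in WT 1 and WT 2, and 51 and 55 in the mutant libraries, where it was thus still present. The sex of the cells and the genotype cannot be told apart, and the share of cells from the male recipients was not measured. One locus, Gm42418, took 13.9% of the reads of Trem2 mutant 1 and 0.258% to 1.04% of the others. The part that these differences play in the results below was not tested.

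Of the 10 genes, 6 were higher in the mutant libraries (Mmp25, Plaur, Mmp9, Timp2, Adam8 and Mmp19), 1 was lower (Mmp14) and 3 did not pass the test (Mmp12, Mmp13 and Plau; edgeR quasi-likelihood test, two-sided, adjusted p under 0.05). Over all genes tested, 9.55% were called higher and 3.6% lower. The median log2 fold change of the 10 genes was 0.52, against -0.02 over all genes. In 7 genes both mutant libraries lay above both WT libraries, which held for 28.9% of all genes, and in 2 both lay below, which held for 31.7%. A fit without 1 library leaves 1 library in that group. Its calls, here and below, thus rest on the spread between the libraries of the other group alone. Without Trem2 mutant 1, the library with the Gm42418 excess, 6 were called higher and 2 lower (all genes: 9.98% and 4.07%). Without WT 1 the counts were 4 and 1 (all genes: 3.25% and 0.612%), and without WT 2 they were 5 and 1 (all genes: 4.8% and 0.861%), so fewer genes were called over the whole table too. Without Trem2 mutant 3 they were 8 and 1 (all genes: 14.2% and 6.2%).

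**Figure D1:**
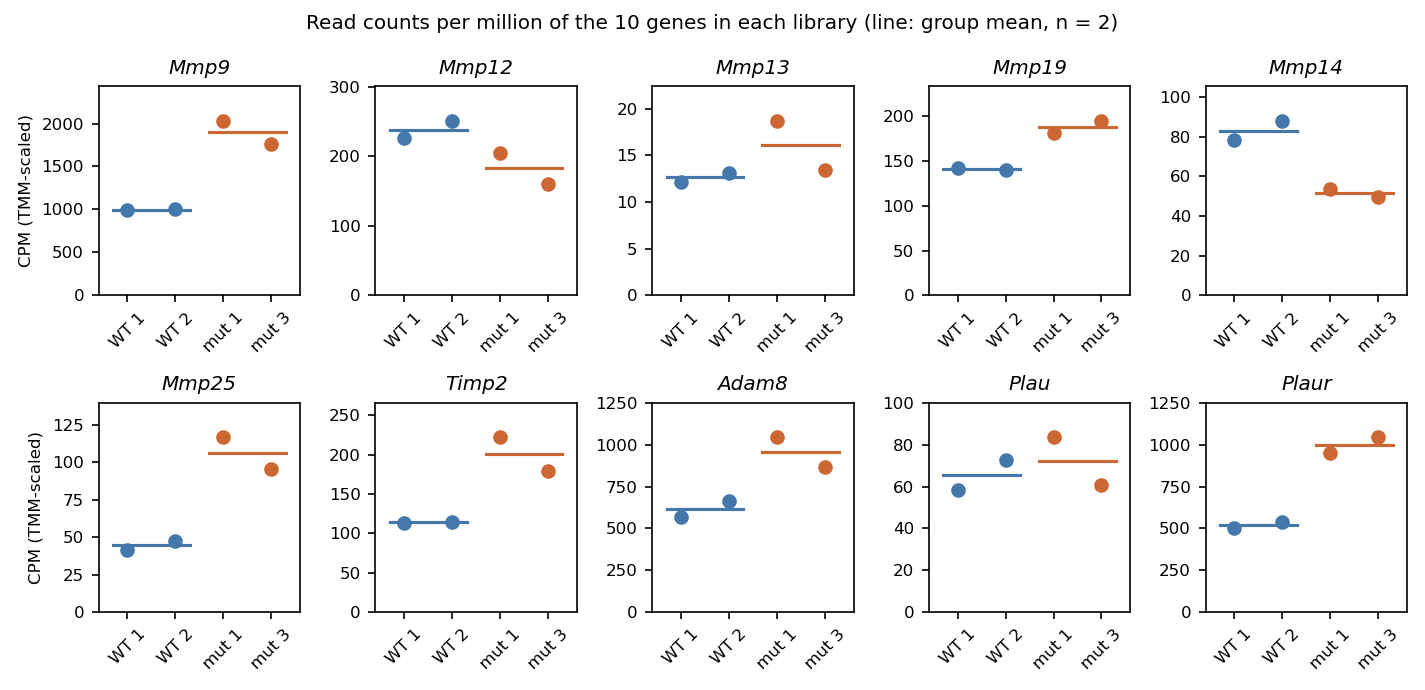
Read counts scaled to library size (CPM, TMM-scaled, axes from 0) of the 10 genes in WT 1, WT 2, Trem2 mutant 1 (mut 1) and Trem2 mutant 3 (mut 3), with a line at each group mean (n = 2). The mutant points lie above the WT points in 7 panels, below them in those of Mmp12 and Mmp14, and overlap them for Plau.

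Mmp9, gelatinase B, a secreted enzyme stored in neutrophil granules (ENSMUSG00000017737, GRCm38 chromosome 2, 164940780 to 164955850, plus strand), had the highest level of the 10. It stood at 990.0 CPM in WT 1, 1007 in WT 2, 2030.3 in Trem2 mutant 1 and 1764 in Trem2 mutant 3. The mutant libraries were thus well apart from the WT libraries, which differed little from each other. Mmp9 rose 1.90-fold (log2 fold change 0.93, SE 0.112, adjusted p = 0.00229).

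Mmp19, a secreted enzyme of macrophages and other cells (ENSMUSG00000025355, chromosome 10, 128790910 to 128800824, plus strand), measured 142 and 140.2 CPM in the WT libraries and 181 and 195 CPM in the mutant libraries. The groups did not overlap, and the rise was the smallest among the 6 called (1.33-fold, log2 0.41, SE 0.0798, adjusted p = 0.0149). The call was lost without WT 1 (adjusted p = 0.129) and without WT 2 (0.111). Exons of Mmp19 share 789 bases with those of Tmem198b on the opposite strand, which had 414, 432, 523 and 647 reads in WT 1, WT 2, Trem2 mutant 1 and Trem2 mutant 3. Reads from the shared bases, with a strand setting not given in the sources used here, cannot be told apart.

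Mmp12, macrophage elastase (ENSMUSG00000049723, chromosome 9, 7344381 to 7369499, plus strand), was at 226 and 251 CPM in WT and 205 and 160.5 CPM in the mutant libraries. Both mutant libraries lay below both WT libraries, yet the difference did not pass (log2 -0.38, SE 0.124, adjusted p = 0.0838). Without Trem2 mutant 1 the log2 fold change was -0.56. Without Trem2 mutant 3 the value was -0.20.

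Mmp13, an interstitial collagenase (ENSMUSG00000050578, chromosome 9, 7272514 to 7283331, plus strand), had the lowest level, 12.2 and 13.1 CPM in WT and 18.7 and 13.4 CPM in the mutant libraries. Trem2 mutant 1 alone stood above the rest, as Trem2 mutant 3 was close to WT 2. The difference did not pass (log2 0.34, SE 0.192, adjusted p = 0.278). It was 0.58 without Trem2 mutant 3, where it passed (adjusted p = 0.0381), and 0.10 without Trem2 mutant 1.

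The membrane-bound pair moved in opposite directions. Mmp25, also called leukolysin, is held on the surface of neutrophils by a lipid anchor (ENSMUSG00000023903, chromosome 17, 23628311 to 23645277, minus strand). It was at 41.3 and 47.7 CPM in WT and at 117 and 95.3 CPM in the mutant libraries. This was the largest change of the 10, a rise of 2.38-fold (log2 1.25, SE 0.124, adjusted p = 9.59e-04). Its log2 fold change exceeded that of 96.7% of all genes tested.

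Mmp14, a transmembrane collagenase that activates the precursor of Mmp2 (ENSMUSG00000000957, chromosome 14, 54431612 to 54445364, plus strand), was at 78.2 and 88.0 CPM in WT. It fell to 53.4 and 49.9 CPM in the mutant libraries, with no overlap between the groups. The level was 1.61-fold lower (log2 -0.69, SE 0.0975, adjusted p = 0.00439), and 5.06% of all genes had a lower log2 fold change. The fall held its call with each library left out in turn (log2 -0.77 to -0.60). Mmp2 itself, mostly a product of stromal cells and named here for its link to Mmp14, had 109 to 149 reads in the 4 libraries and did not pass (log2 0.32, adjusted p = 0.221).

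Timp2, the inhibitor (ENSMUSG00000017466, chromosome 11, 118301069 to 118355740, minus strand), was at 113 and 114 CPM in WT 1 and WT 2, nearly the same value, and at 222 and 179 CPM in the mutant libraries. Timp2 rose 1.76-fold (log2 0.82, SE 0.110, adjusted p = 0.00354). Trem2 mutant 1 was the higher of the mutant libraries, and without it the log2 fold change was 0.66.

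Adam8, a membrane protease of granulocytes and macrophages that sheds adhesion receptors (ENSMUSG00000025473, chromosome 7, 139978932 to 139992562, minus strand), measured 569 and 666 CPM in WT and 1045 and 865 CPM in the mutant libraries. The groups did not overlap, but each pair was spread. The rise was 1.55-fold (log2 0.63, SE 0.128, adjusted p = 0.0182), and the call was lost without WT 1 (log2 0.52, adjusted p = 0.175). Exons of Adam8 share 46 bases with Gm16201 on the opposite strand, which had 47 to 87 reads.

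The urokinase receptor rose, while its ligand did not pass the test. Plaur (ENSMUSG00000046223, chromosome 7, 24462484 to 24475968, plus strand) was at 505 and 536 CPM in WT and 954 and 1045 CPM in the mutant libraries, 1.92-fold higher (log2 0.94, SE 0.0986, adjusted p = 0.00122). Its call held with each library left out (log2 0.89 to 1.02). Plau (ENSMUSG00000021822, chromosome 14, 20836660 to 20843385, plus strand) was at 58.5 and 72.6 CPM in WT and 83.5 and 60.7 CPM in the mutant libraries. The Plau groups overlapped, and the difference did not pass (log2 0.14, SE 0.163, adjusted p = 0.619). Plau took a negative sign without WT 1 (-0.012) and without Trem2 mutant 1 (-0.10), and its value was 0.37 without Trem2 mutant 3.

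Most of the genes differed in 1 direction between libraries of the same genotype. In WT 2, 9 of the 10 were higher than in WT 1 (49.2% of all genes tested were), by up to 0.31 on the log2 scale (Plau). In Trem2 mutant 3, 8 of the 10 were lower than in Trem2 mutant 1 (49.5% of all genes), by up to 0.48 (log2 difference -0.48, Mmp13), and the exceptions were Mmp19 (0.10) and Plaur (0.13). The largest of these differences, that of Mmp13, exceeded the called change of Mmp19 between genotypes (0.41). Mmp19 itself differed less within a genotype, by -0.014 between the WT libraries and 0.10 between the mutant libraries. In bulk samples such as these, a change in the number of cells of a type and a change in RNA per cell cannot be told apart.

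Promoter sequences were available for 7 of the 10 genes from RefSeq (GRCm38.p6); Mmp9, Mmp19 and Plau were not among them. A set of 4 is shown because it spans the results: Plaur and Mmp25 rose, Mmp14 fell, and Mmp13 did not pass but shares a motif with Plaur. Each runs 5′ to 3′ on the gene's strand from 250 to 21 bases before the start, at chr7:24462233-24462462 (plus strand), chr17:23645290-23645519 (minus), chr14:54431348-54431577 (plus) and chr9:7272264-7272493 (plus). Capitals mark matches, on either strand, to the AP-1 motif TGANTCA, a PU.1-type ETS motif GAGGAA, the GC box GGGCGG and the TATA box TATAAA.
Plaur: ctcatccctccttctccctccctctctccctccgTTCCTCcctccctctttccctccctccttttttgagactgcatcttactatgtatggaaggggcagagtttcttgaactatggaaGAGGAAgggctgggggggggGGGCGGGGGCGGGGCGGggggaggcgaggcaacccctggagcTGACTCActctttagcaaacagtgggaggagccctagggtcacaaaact
Mmp25: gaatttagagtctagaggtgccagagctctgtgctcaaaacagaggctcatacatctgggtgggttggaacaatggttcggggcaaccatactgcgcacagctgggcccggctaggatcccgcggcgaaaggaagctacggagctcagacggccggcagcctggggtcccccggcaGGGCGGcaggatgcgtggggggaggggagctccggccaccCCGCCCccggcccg
Mmp14: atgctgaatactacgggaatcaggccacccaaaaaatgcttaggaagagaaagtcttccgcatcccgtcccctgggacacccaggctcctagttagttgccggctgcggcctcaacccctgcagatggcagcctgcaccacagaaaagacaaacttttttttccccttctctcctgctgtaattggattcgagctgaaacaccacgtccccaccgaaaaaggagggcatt
Mmp13: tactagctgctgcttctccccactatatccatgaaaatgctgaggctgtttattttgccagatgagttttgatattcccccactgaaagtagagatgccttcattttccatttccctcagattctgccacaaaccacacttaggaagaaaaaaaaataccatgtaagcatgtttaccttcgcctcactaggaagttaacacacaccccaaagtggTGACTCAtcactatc

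The AP-1 motif lay 69 to 63 bases before the Plaur start and 35 to 29 bases before the Mmp13 start. It also lay 44 to 38 bases before the second of the listed Mmp12 starts. Among 32851 RefSeq promoter windows of the same 230 bases, 6.34% held it. The GC box, present in 29.8% of all windows, was found in Plaur (3 matches, the nearest pair to the start sharing 1 base), Mmp25 (2 matches), Adam8 and Timp2, and in none of the Mmp12, Mmp13 and Mmp14 windows. The PU.1-type motif (21.3% of all windows) was in Plaur and in the first Mmp12 window, and the TATA box (11.8%) in none of the 7 genes. Bases after the start of that first Mmp12 window were found in no GENCODE transcript of Mmp12, unlike those of the other windows. A match describes letters only, and these counts were not tested.

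Levels can be set side by side between genes only after division by exonic length (CPM per kilobase of GENCODE exons). On that scale the WT order was Mmp9 (280 to 285), Plaur (193 to 205), Adam8 (123 to 144), Mmp19 (39.7 to 40.1), Mmp12 (31.2 to 34.7), Timp2 (29.1 to 29.2), Plau (24.7 to 30.7), Mmp14 (13.1 to 14.8), Mmp25 (7.8 to 9.0) and Mmp13 (4.56 to 4.91). Of the neighbours in this order, Timp2 and Plau overlapped. In the mutant libraries the first 3 kept their places, at 499 to 574 for Mmp9, 364 to 399 for Plaur and 187 to 225 for Adam8. There Timp2 (45.9 to 56.9) overlapped Mmp19 (51.3 to 55.1), and Plau (25.7 to 35.3) overlapped Mmp12 (22.2 to 28.4). Mmp25 (18.0 to 22.0) then stood above Mmp14 (8.37 to 8.96), the reverse of their order in WT, and Mmp13 was last (5.03 to 6.99). Averaged over the 4 libraries, Mmp9, Plaur and Adam8 lay above 99.4%, 99.1% and 98.5% of tested genes on this scale, and Mmp13 above 53.7%.

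Ratios of reads per kilobase between genes of the same library do not depend on how libraries are scaled. The gene pairs were picked after the values had been seen, and with 2 libraries against 2 an exact permutation test cannot go below p = 0.333 (two-sided), so the ratios are descriptions. Mmp14 relative to Timp2 was 0.451 and 0.505 in WT and 0.158 and 0.182 in Trem2 mutant 1 and Trem2 mutant 3, so the mutant mean was 0.355 times the WT mean. By contrast, Mmp9 relative to Timp2 was nearly level, at 9.61 and 9.74 in WT and 10.1 and 10.9 in the mutant libraries. For Mmp25 relative to Mmp14 the values were 0.594 and 0.609 in WT and 2.45 and 2.15 in mutant libraries, with a mutant mean 3.82 times the WT mean. Receptor over ligand, Plaur relative to Plau, gave 7.81 and 6.68 in WT and 10.3 and 15.6 in mutant libraries, so its mutant libraries differed from each other more than the WT libraries did. Mmp8, the collagenase of neutrophil granules, was 3.23 and 2.93 times as high as Mmp9 per kilobase in WT and 2.11 and 2.25 times in mutant libraries.

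**Figure D2:**
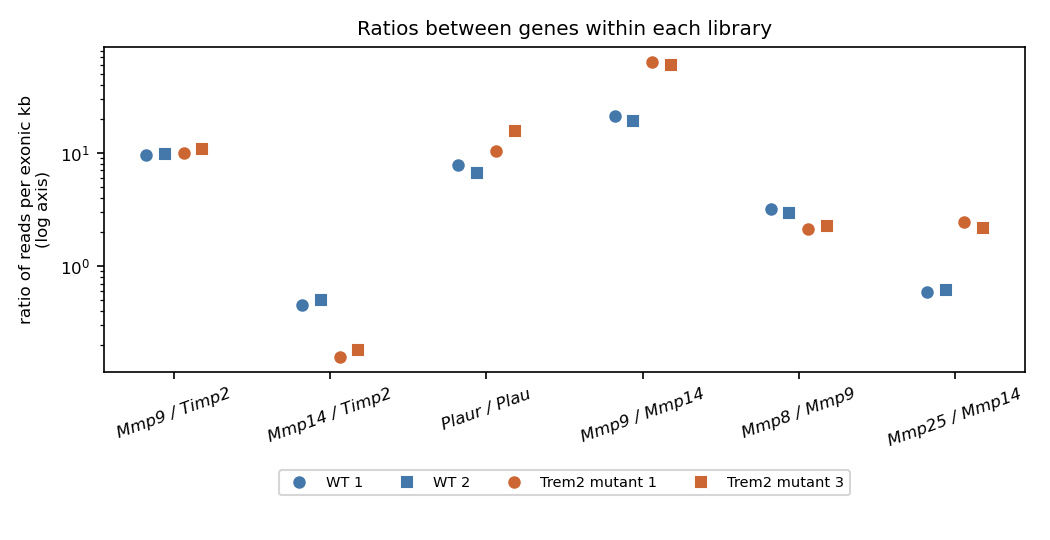
Ratios of reads per exonic kilobase between genes within each library (log axis), with circles and squares for the libraries of each genotype. Mmp14 relative to Timp2 is lower in both mutant libraries, Mmp25 and Mmp9 relative to Mmp14 are higher, and Mmp9 relative to Timp2 lies within 9.61 to 10.9 in all 4.

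The wider pathway was described with 71 other genes: further metalloproteinases, their inhibitors and cofactors, ADAM and ADAMTS proteases, and the plasminogen system. Of these, 58 were in the table and 44 were tested, and the mutant libraries were higher in 17 and lower in 3, again against 9.55% and 3.6% of all genes. Their median log2 fold change was 0.28. Without WT 1, 8 were higher and 0 lower (all genes: 3.25% and 0.612%), and without WT 2, 10 were higher and 0 lower (4.8% and 0.861%).

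Among 8 other metalloproteinases tested, 3 were called higher and 0 lower. Mmp8 was the most abundant, at 2188 and 2025 CPM in WT and 2929 and 2722 CPM in the mutant libraries. Its rise was 1.34-fold (log2 0.42, SE 0.114) and barely passed (adjusted p = 0.0490), a call lost when WT 1 or WT 2 was left out, and under upper quartile or totals scaling, the stricter filter and the bias-adjusted test. Mmp3 and Mmp10, stromelysins named after their values were seen, were rare: Mmp3 had 0 and 4 reads in WT and 16 and 21 in mutant libraries, and Mmp10 had 12 and 7 against 29 and 37. Both calls were lost without WT 1. That of Mmp10 was also lost without WT 2 and with DESeq2, which gave no adjusted p for Mmp3.

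Of 10 inhibitors and cofactors, 5 were higher and 1 lower. Lcn2, whose human counterpart binds MMP9 and shields it from degradation, rose 15.7-fold, from 144 and 128 CPM to 2576 and 1709 CPM (log2 3.97, SE 0.207, adjusted p = 4.81e-05). Both mutant libraries lay far above both WT libraries. Thbs1, thrombospondin 1, a matrix protein that binds metalloproteinases, was the most abundant gene of the list, at 5399 and 6486 CPM in WT and 15224 and 11933 CPM in the mutant libraries (2.29-fold higher, adjusted p = 0.00524). Its call was lost without WT 1 (adjusted p = 0.0948). Thbs2 rose 5.23-fold from a low level of 19 and 21 reads (adjusted p = 0.00211). Lrp1, an endocytic receptor that clears Mmp9 and complexes of urokinase with its inhibitor, was 1.61-fold lower (1470.3 and 1514 CPM in WT against 977 and 875 CPM in mutant libraries, log2 -0.69, adjusted p = 0.00586), a call lost without WT 1 and without WT 2.

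Outside the naming rule, and chosen after their values were seen, the other inhibitors were Timp1, Timp3 and Reck, a membrane-anchored inhibitor. Timp1 rose from 8 and 11 reads to 32 and 27 (adjusted p = 0.0262), with its call lost without WT 1, without WT 2, without Trem2 mutant 1 and with DESeq2. Reck rose from 12 and 7 reads to 69 and 63 (adjusted p = 0.00211) and kept its call with each library left out. Timp3, with 29 to 95 reads, did not pass (log2 0.87, adjusted p = 0.164). The sum of fibroblast markers was higher in the same mutant libraries (181 to 235 CPM in WT, 496 to 534 CPM in mutant), though Acta2 did not rise. The part of these markers in the changes of these low-level genes was not tested.

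Of 14 other ADAM and ADAMTS genes and their partners, 4 were higher and 0 lower. Adam19, a membrane protease that sheds neuregulins, rose 3.76-fold, from 51.8 and 56.2 CPM to 214 and 193 CPM (log2 1.91, SE 0.0925, adjusted p = 3.36e-05). Its groups did not overlap, and its call held under every alternative run. Adam17, the sheddase of tumour necrosis factor and the gene of the list with the highest mean CPM, did not pass (300.3 and 332 CPM in WT against 280 and 288 CPM in mutant libraries, log2 -0.15, SE 0.0872, adjusted p = 0.279). Per exonic kilobase, Adam10 (mean 43.0) was slightly above Adam17 (41.9). Adam17 was called lower when libraries were scaled by totals alone (log2 -0.52, adjusted p = 0.0135). The other 3 higher genes, Adam12, Adamts2 and Adamts4, were named after their values were seen and had at most 7 reads in either WT library. The calls of Adam12 and Adamts4 were lost when WT 1 or WT 2 was left out, and that of Adamts2 without WT 2. Adam12 also lost its call with DESeq2 (adjusted p = 0.0502), and Adamts4 had a test in 10 of the 14 alternatives, DESeq2 not among them.

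In the plasminogen system, 5 of 12 tested genes were higher and 2 lower. Serpinb2, an inhibitor of urokinase, rose from 27.0 and 25.7 CPM to 60.9 and 69.4 CPM (2.47-fold, log2 1.31, SE 0.109, adjusted p = 4.79e-04). It kept its call with each library left out. Itgam and Itgb2, the chains of the integrin that pairs with Plaur on leukocytes, rose 1.52-fold (adjusted p = 0.00429) and 1.59-fold (adjusted p = 0.00618). Anxa2, which holds plasminogen on the cell surface, rose 1.53-fold (adjusted p = 0.00429). The calls of Itgam, Anxa2 and Itgb2 were lost without WT 1, and that of Itgb2 also without WT 2. Scaling by library totals ended all 3 calls (log2 0.23 for Itgam, 0.24 for Anxa2 and 0.29 for Itgb2). S100a10, the partner of Anxa2 in that plasminogen receptor, was lower instead, at 80.5 and 86.5 CPM in WT against 59.4 and 56.2 CPM in mutant libraries (log2 -0.53, adjusted p = 0.00845), and Igf2r was lower too (log2 -0.49, adjusted p = 0.0151). Igf2r, like Mrc2 (6 to 24 reads in WT, 66 and 84 in mutant libraries, adjusted p = 0.0147), was named after its values were seen, and the calls of S100a10 and Igf2r were lost without WT 1 and without WT 2.

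**Figure D3:**
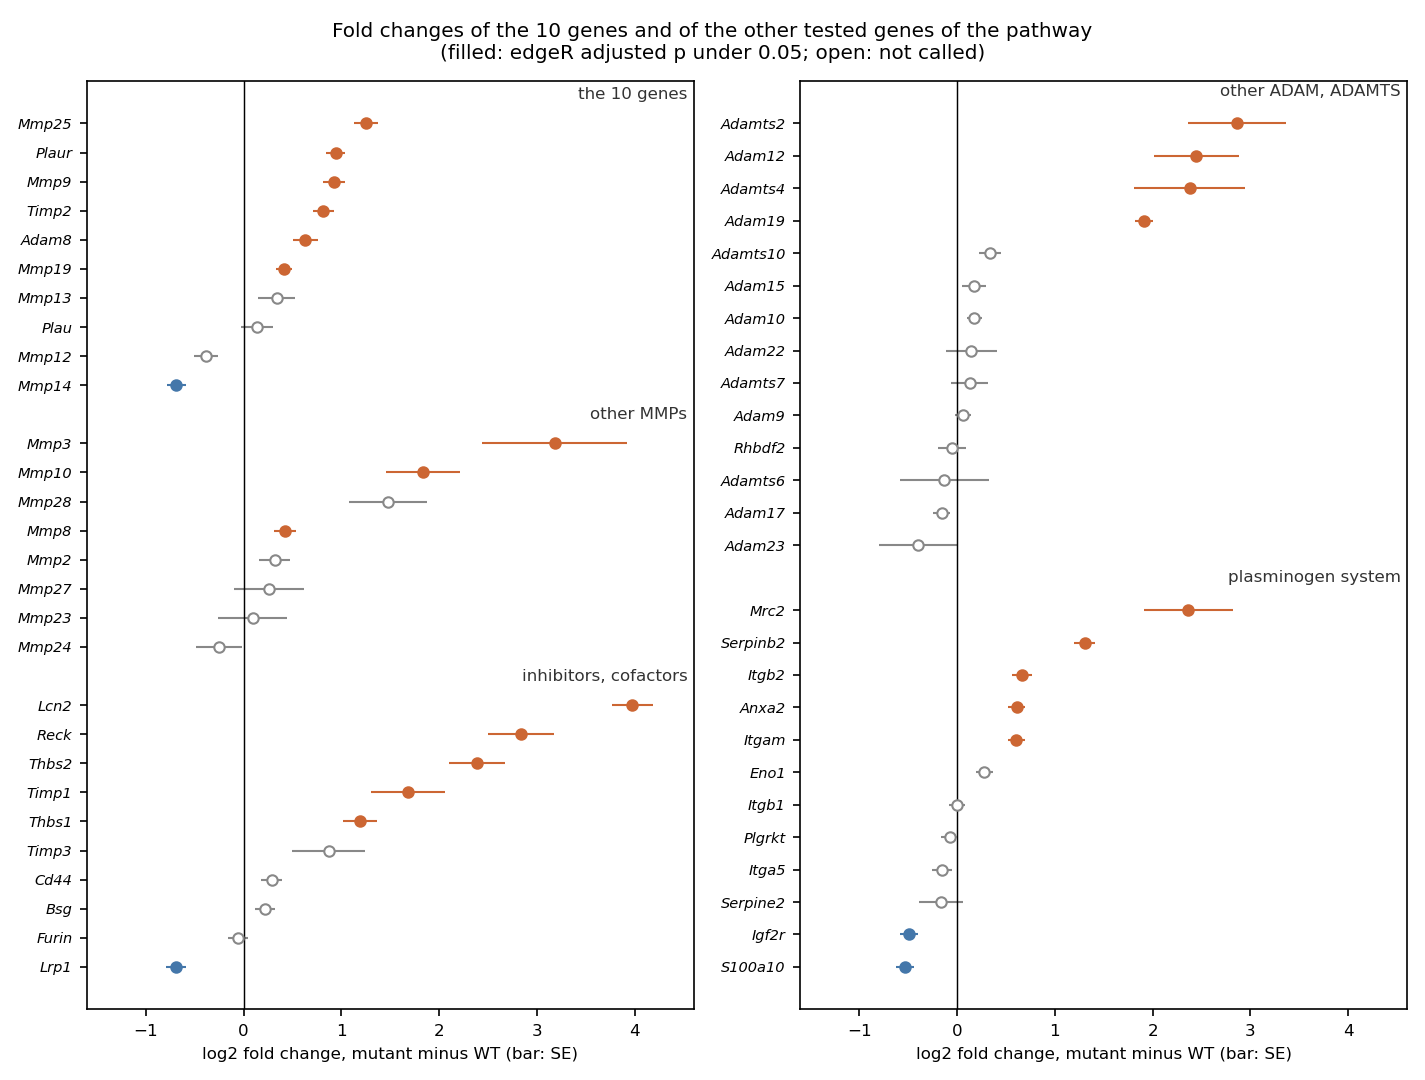
Log2 fold changes (mutant minus WT) with standard errors for the 10 genes and for the 44 other tested genes of the pathway, in 4 lists. Filled points passed the edgeR test (17 of the 44 higher, 3 lower), and among the 10 genes Mmp25 is the highest and Mmp14 the only filled point below 0.

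The scaling of the libraries matters for the smaller changes. When libraries were scaled by their totals alone, the median of all genes moved from -0.02 to -0.40 (log2), and 4.56% of genes were called higher and 30.7% lower. Mmp25 (log2 0.87), Plaur (0.57), Mmp9 (0.55) and Timp2 (0.43) were still called higher, and Mmp14 (-1.06) and Mmp12 (-0.77) lower. Mmp19 (0.046) and Adam8 (0.25) were not called, and Mmp13 (-0.047) and Plau (-0.25) changed sign, though relative to the shifted median of all genes these 4 values still lay above it. With at least a 2-fold change required, Mmp25 alone was called (all genes: 3.49% higher and 0.667% lower).

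**Figure D4:**
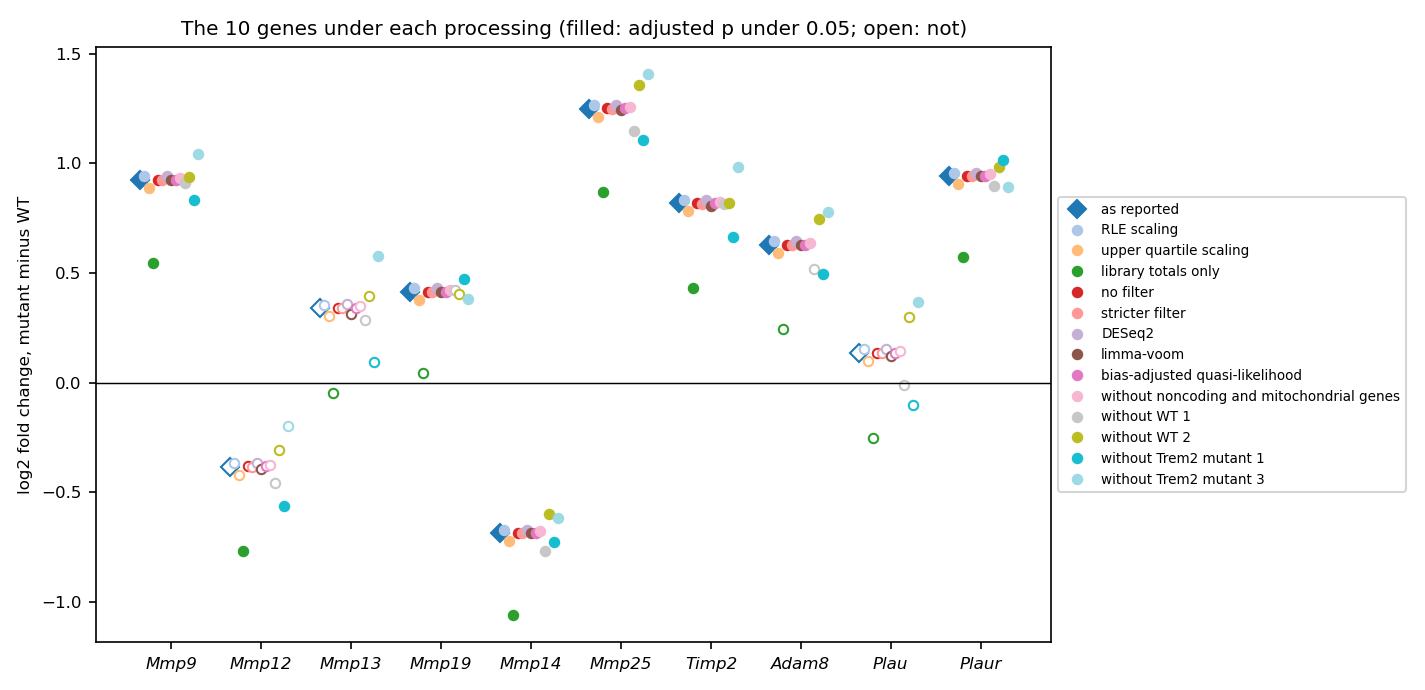
Log2 fold changes (mutant minus WT) of the 10 genes as reported (diamond) and under 13 other ways of processing (circles), filled where the adjusted p was under 0.05. Points of Mmp25, Plaur, Mmp9, Timp2 and Mmp14 are filled and on 1 side of 0 throughout, and scaling by library totals gives the lowest point of every gene.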

How the data were processed

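The authors deposited unnormalized whole-number read counts by Ensembl gene ID. Per the submitters' processing notes, the tools were STAR 2.5.2a, FastQC and DESeq2, and the build GRCm38 (mm10). Counter, filter and strand setting: not given in the sources used here; no gene in the table had fewer than 11 reads in all. Of the IDs, 17422 matched GENCODE M21, which gave symbols, positions and exon lengths, and 54 did not. The column numbered 3 matches no label number and was assigned to the mutant group by name only. Libraries of a genotype differed by more than counting noise around shares set by read totals (median squared difference over noise 2.01 in WT and 6.24 in mutant). No TMM factors entered these values. They therefore include differences in library make-up, such as the Gm42418 excess of Trem2 mutant 1 (13.9% of its reads), and do not measure the spread of single genes alone. The libraries were kept as distinct, with none treated as another deposited again. Whether they stem from different mice remains unknown.

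Filtering (filterByExpr), TMM scaling and the comparison of mutant with WT used edgeR 4.0.16 in R 4.3.3, with no term but genotype (glmQLFit in its default form, glmQLFTest, Benjamini-Hochberg over 14239 genes). The fit had 2 residual and 5.71 prior degrees of freedom. Standard errors were derived from the F statistic (log2 fold change over its square root), and CPM are TMM-scaled. A floor of 3 counts was 0.322 to 0.359 CPM, for counting error only. On simulated counts (13925 genes), the test recovered 71.1% of 97 genes changed 2-fold and 96.8% of 94 genes changed 4-fold. These changes were balanced up and down. All simulated libraries shared the same dispersion trend, and none held an excess like that of Gm42418. Recovery in the real libraries may therefore differ.

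Alternatives were RLE, upper quartile or no scaling beyond totals, no filter, a stricter filter (10 reads in 2 libraries and a mean of 1 CPM), DESeq2 1.42.0, limma-voom (limma 3.58.1), bias-adjusted quasi-likelihood, leaving out 2622 noncoding and mitochondrial genes, a required change of at least 2-fold, and omission of each library in turn. The members and lists were chosen with earlier results of these data known, and 1 pathway gene is not reported here. By rule, the genes named were the 10 members and Trem2. Each of 4 pathway lists added up to 5 called genes with a mean of at least 5 CPM, and its gene with the highest mean CPM. Each marker list added its gene with the highest mean CPM, not divided by exonic length. By that last part the genes were S100a9 (log2 2.75), Csf1r (-0.28, not called), Fn1 (1.53), Siglecf (0.82), Col1a1 (1.51), Vwf (-0.71), Cdh1 (-0.88) and Cd79a (-0.52, not called), for neutrophils, macrophages, monocytes, eosinophils, fibroblasts, endothelium, epithelium and lymphocytes. A gene named this way need not stand for its list. Per exonic kilobase, Pecam1 (mean 11.7) was above Vwf (5.33) in the endothelial list, and it was called higher (log2 0.52).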

Additional observations from a re-analysis of the deposited data

How the results depend on the processing

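Of 140 values for the 10 genes under 14 alternatives, 121 kept their direction and their side of the threshold, 11 lost the call, 4 gained it and 4 took the other sign. All 80 values under the other scalings (library totals apart), filters and tools kept both. Scaling by totals reversed Mmp13 (-0.047) and Plau (-0.25). Plau was also reversed without WT 1 (-0.012) and without Trem2 mutant 1, with a range of -0.10 to 0.37 over the libraries left out; none of the reversed values was called. The lymphocyte marker Cd79a, not called, ranged from -1.28 to 0.037 (without Trem2 mutant 3). Under scaling by totals, 4 of the 10 genes and 13 of the 44 other pathway genes were higher (all genes: 4.56%). On the same scale 2 of the 10 and 8 of the 44 were lower (all genes: 30.7%). With at least a 2-fold change, 1 of the 10 was higher and 0 lower, and 13 other pathway genes were higher and 0 lower (all genes: 3.49% and 0.667%). These 2-fold counts follow from the stricter rule.

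Leaving out 1 library gave 4 to 8 of the 10 genes higher and 1 to 2 lower, and 8 to 22 other pathway genes higher and 0 to 4 lower, while 3.25% to 14.2% of all genes were higher and 0.612% to 6.2% lower. The cause was not tested. No paired analysis was possible because the count columns carry only number 1 in both genotypes: the labels number 2 libraries each, but the mutant column numbered 3 matches no label. The replicate block was not run. With 2 libraries per group, Mmp13, with the fewest reads of the 10 (112 to 156), also had the largest SE (0.192).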
